A study of Mus musculus with 32 samples.

Results

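The cytochrome P450 genes encode the heme enzymes with which the liver oxidises drugs, steroids, bile acids, fatty acids and vitamins. They were followed here in the livers of mice given palm oil or water and then left basal or clamped with insulin. Members were the genes whose symbol in the array annotation has the P450 form (Cyp, a family number, a subfamily letter and a gene number) or is Cyp51. Cyp7a1, Cyp8b1, Cyp7b1, Cyp27a1 and Cyp26a1 were left out by the rule. A gene was read from 1 probe set, the one with the highest mean, among probe sets that name 1 gene. This gave 85 P450 genes of 22180 genes in all. The symbol rule uses no measured value, but the probe set was picked by its mean and earlier results of these data were known. The signal of 35 of the 85 lay at or below the median of all genes (1.83 on the log2 scale), a range in which array differences are compressed, and that of the other 50 lay above it.

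A P450 holds a heme made in a pathway that starts with Alas1, and most take electrons from the reductase Por. Several nuclear receptors set their RNA in hepatocytes: CAR (Nr1i3) and PXR (Nr1i2) act on the Cyp2b, Cyp2c and Cyp3a genes, the aryl hydrocarbon receptor on Cyp1 genes, and PPARA on the Cyp4a genes. Inflammation and the sex-dependent rhythm of growth hormone are textbook influences on many of them.

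Each array was the liver of 1 wild-type male C57BL/6NTac mouse aged 14 weeks that had been fasted for 10 h and gavaged. Control mice received water and palm oil mice 2 g per kg of palm oil. Basal mice were killed 6 h after the gavage under isoflurane. Clamped mice carried a jugular vein catheter placed days earlier under ketamine and xylazine, received labelled glucose and then insulin at 15 pmol per kg per min with glucose to hold glycemia. That procedure began 6 h after their gavage and they were killed at its end, hence later than basal mice, with ketamine and xylazine. There were 7 control basal, 7 control clamped, 9 palm oil basal and 9 palm oil clamped mice. High insulin, surgery, infusion, anaesthetic and time since the gavage therefore all differ between clamped and basal mice and cannot be told apart.

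Hepatocyte markers (8 of 8 measured) had a mean between 10.28 and 10.78 on every array. Pancreatic acinar markers (15 of 17 measured) ran from 1.65 to 8.998, with group medians of 6.81 in control basal, 2.05 in control clamped, 7.28 in palm oil basal and 1.91 in palm oil clamped mice, and 12 arrays had a mean above 6. The 7 basal arrays numbered 44 or higher in the sample descriptions (4 control, 3 palm oil) had an interquartile range of 2.44 to 2.54, against 2.72 to 2.96 on the other 9 basal arrays. Their hepatocyte marker means were lower too, from 10.28 to 10.46, against 10.52 to 10.65 on those 9. On clamped arrays the hepatocyte marker means ran from 10.61 to 10.78. What that number stands for is not stated, and the part of these differences in the results was not tested. Every clamped array has a lower number (15 to 32) than every basal array (33 to 52). Whatever the number stands for therefore cannot be told apart from the clamp, and leaving out basal arrays does not change that. Results that rest on these arrays are given with and without them.

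The sequences just before the start sites are shown for 3 neighbouring Cyp2b genes, because they lie side by side on chromosome 7, Cyp2b10 rose and Cyp2b9 fell, and Cyp2b13, not past the test, lies between them. Each is the 250 bases before the RefSeq start, 5′ to 3′ in the direction of transcription, all on the plus strand of GRCm38.p6. Capitals mark bases that differ from Cyp2b9 in a pairwise alignment. They lie at chr7:26173159-26173408 for Cyp2b9, chr7:26061245-26061494 for Cyp2b13 and chr7:25897408-25897657 for Cyp2b10.
Cyp2b9: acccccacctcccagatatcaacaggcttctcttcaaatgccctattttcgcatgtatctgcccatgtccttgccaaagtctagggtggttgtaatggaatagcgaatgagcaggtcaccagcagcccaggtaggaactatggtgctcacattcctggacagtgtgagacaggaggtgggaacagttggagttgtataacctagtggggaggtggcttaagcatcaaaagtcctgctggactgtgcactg
Cyp2b13: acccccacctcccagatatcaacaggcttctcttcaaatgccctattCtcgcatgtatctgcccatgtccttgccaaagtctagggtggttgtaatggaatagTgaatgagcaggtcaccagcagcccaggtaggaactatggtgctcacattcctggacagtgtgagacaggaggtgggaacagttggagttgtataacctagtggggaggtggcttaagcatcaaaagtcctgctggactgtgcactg
Cyp2b10: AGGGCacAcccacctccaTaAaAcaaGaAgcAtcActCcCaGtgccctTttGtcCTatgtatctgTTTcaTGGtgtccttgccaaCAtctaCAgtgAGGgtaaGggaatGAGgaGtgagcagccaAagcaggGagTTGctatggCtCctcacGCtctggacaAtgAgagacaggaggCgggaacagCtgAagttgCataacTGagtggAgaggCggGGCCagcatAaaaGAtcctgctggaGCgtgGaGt
The Cyp2b9 and Cyp2b13 stretches were identical at 248 of 250 bases. Cyp2b9 and Cyp2b10 were identical at 182 of 250. RefSeq places the run in the order Cyp2s1, Cyp2b10, Cyp2b13, Cyp2b9, Cyp2a4. Genes this alike can share probes, so the values of Cyp2b9, Cyp2b10 and Cyp2b13 are uncertain to the extent that RNA of one binds the probes of another.

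The question of the clamp comparison was what the hyperinsulinemic clamp changed in the liver. In control mice 9 of the 85 P450 genes passed the test, a moderated test (limma) with Benjamini-Hochberg adjusted p under 0.05 over all genes. That is 10.6% of the members beside 8.75% of all genes. Cyp2b10, Cyp2c70, Cyp3a13, Cyp39a1 and Cyp21a1 rose (5.88%, beside 4.66% of all genes), and Cyp2b9, Cyp2u1, Cyp2d13 and Cyp46a1 fell (4.71%, beside 4.09%). In palm oil mice 12 passed, 14.1% of the members beside 7.57% of all genes. These were the same 9 in the same direction together with Cyp17a1, which rose, and Cyp26b1 and Cyp2c23, which fell. Of the palm oil calls 6 rose (7.06%, beside 3.76% of all genes) and 6 fell (7.06%, beside 3.8%). These shares are not matched for signal level. Of the 85 members 50 lie above the median of all genes, and every call but that of Cyp21a1 came from those 50. The median member differed by -0.06 among control and by -0.05 among palm oil mice, and the median gene by -0.02 in both. Members moved both ways around a median near 0.

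**Figure D1:**
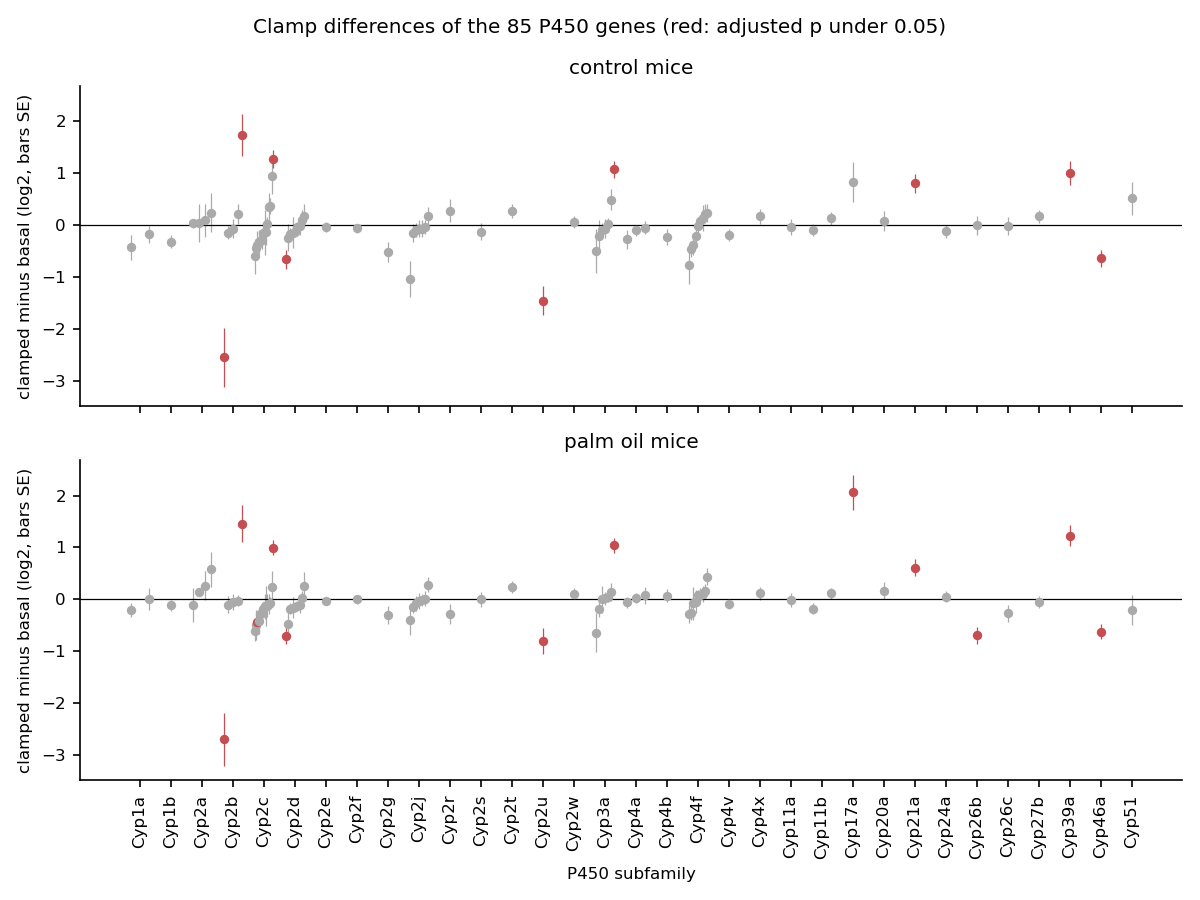
Clamped minus basal difference (log2, vertical axis) of each of the 85 P450 genes, grouped by subfamily along the horizontal axis, in control mice (upper panel) and palm oil mice (lower panel). Bars are the SE of the fit and red points have an adjusted p under 0.05. Most points lie near 0, and the Cyp2b subfamily holds both the deepest fall (Cyp2b9, -2.54 for control and -2.69 for palm oil) and a rise (Cyp2b10, 1.73 and 1.46).

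Cyp2b9, a steroid and drug hydroxylase known for higher levels in female liver, fell most. Its log2 values in control basal mice ran from 3.64 through a median of 5.19 to 6.20, and in control clamped mice from 1.60 through 2.34 to 3.38. All 7 control clamped mice lay below every control basal mouse. In palm oil basal mice Cyp2b9 ran from 3.36 through 5.33 to 8.0, and in palm oil clamped mice from 1.52 through 2.18 to 5.24. Of the 9 palm oil clamped mice, 7 lay below every basal one, and replicate 8 lay apart at 5.24. The difference was -2.54 ± 0.57 in control mice (SE, n = 7 and 7, limma adjusted p = 0.00292), 5.82-fold lower under the clamp. It was -2.69 ± 0.50 in palm oil mice (SE, n = 9 and 9, adjusted p = 3.68e-04), 6.47-fold lower. Without the 12 arrays high in acinar markers the Cyp2b9 differences were -2.17 (adjusted p = 0.151) and -2.51 (adjusted p = 0.0626), neither past the threshold. The spread of Cyp2b9 was wide, with an SD of 1.05 in control basal and 1.55 in palm oil basal mice, and its within-group SD over all 4 groups (1.17) was larger than that of 99.8% of all genes.

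Cyp2b10, the gene most often used to read out CAR, lies in the same run and rose. Its values ran from 0.71 through 1.13 to 1.67 in control basal mice and from 1.29 through 2.44 to 4.54 in control clamped mice. After palm oil they ran from 0.69 through 1.44 to 1.99 basal and from 1.34 through 2.74 to 4.29 clamped. In each diet group the basal mice lay close together and low, and the clamped mice spread widely upward, with 6 of 7 and 7 of 9 above every basal mouse. The Cyp2b10 difference was 1.73 ± 0.40 in control mice (limma adjusted p = 0.00426) and 1.46 ± 0.36 in palm oil mice (adjusted p = 0.00651). Its basal means of 1.17 and 1.41 lie below the median of all genes, where array differences are compressed. Without the arrays high in acinar markers the differences of Cyp2b10 were 1.67 (adjusted p = 0.102) and 1.66 (adjusted p = 0.0738).

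The other Cyp2b genes did not pass. Cyp2b13, whose upstream stretch is nearly that of Cyp2b9, had a mean signal of 1.24 and differences of 0.21 and -0.10. Cyp2b19 and Cyp2b23 had mean signals of 0.97 and 0.88. With signals this low, a change in Cyp2b13 of the kind seen for Cyp2b9 could not be read from the array.

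**Figure D2:**
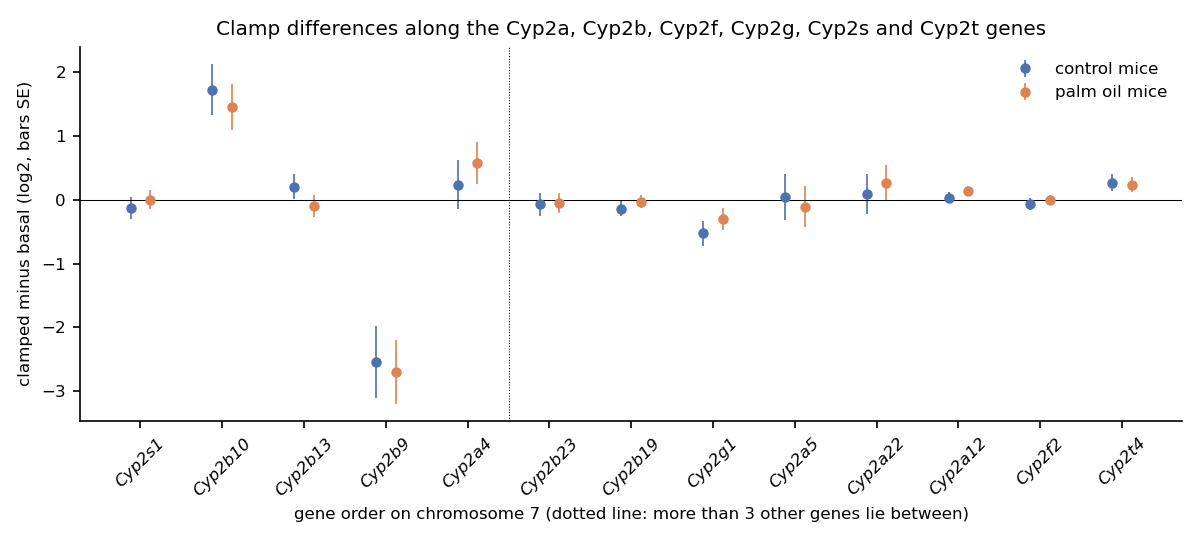
Clamped minus basal difference (log2, vertical axis, bars SE) of the P450 genes of 2 runs on chromosome 7, in their order along the chromosome (horizontal axis), for control mice (blue) and palm oil mice (orange). Cyp2b10 rose and Cyp2b9 fell, and the other genes, among them Cyp2b13 between them, did not pass the test.

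Cyp2c70 and Cyp3a13 rose in both diets and passed under every alternative run. Cyp2c70, the enzyme that makes muricholic acids in mice, ran from 7.88 through 8.35 to 8.64 in control basal mice and from 8.94 through 9.76 to 10.02 in control clamped mice. The palm oil values ran from 8.13 through 8.55 to 9.16 basal and from 9.01 through 9.50 to 9.96 clamped. The control groups did not overlap, and 8 of 9 palm oil clamped mice lay above every basal one. The Cyp2c70 difference was 1.28 ± 0.17 in control (limma adjusted p = 4.19e-06) and 1.00 ± 0.15 in palm oil mice (adjusted p = 2.51e-05). It was the only one of 14 Cyp2c genes to pass in control mice, and it closes a run of 13 neighbouring Cyp2c genes on chromosome 19 in which no other member passed in either diet group.

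The 250 bases before the Cyp2c70 start are shown because this was the rise with the smallest adjusted p in control mice and because they hold a TATA-like match close to the start. They lie at chr19:40187287-40187536 of GRCm38.p6 on the minus strand, printed 5′ to 3′ as transcribed, with the match in capitals.
Cyp2c70: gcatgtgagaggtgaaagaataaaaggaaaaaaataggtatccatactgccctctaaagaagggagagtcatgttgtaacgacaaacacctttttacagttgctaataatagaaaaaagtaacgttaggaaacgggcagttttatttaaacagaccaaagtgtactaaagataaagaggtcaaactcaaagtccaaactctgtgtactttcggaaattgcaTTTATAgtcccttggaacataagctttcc
The match is to TATAAA on the opposite strand, and its first base is 29 bases before the start. RefSeq windows of 300 bases (250 before the start and 50 after) were at hand for 67 of the 85 members and for 27018 genes in all. On either strand TATAAA was found in 25 of the 67 (37.3%) beside 14.2% of all genes. Among the 6 members that passed and have a window it was in Cyp2c70 and Cyp26b1. The forkhead letters TGTTTAC were in 6 of 67 (8.96%, all genes 3.55%), the STAT letters TTCNNNGAA in 4 (5.97%, all genes 8.47%) and AGAACA in 18 (26.9%, all genes 19.02%). TTATGTAA or TTACGTAA was in 0 of 67 (all genes 1.06%), and a direct repeat of AGGTCA with 1 base between in 0 (all genes 0.0444%). None of these 5 was found in the windows of the 6 members that passed.

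Cyp3a13, a drug and steroid oxidase, ran from 6.59 through 7.06 to 7.74 in control basal mice and from 7.96 through 8.14 to 8.37 in control clamped mice. After palm oil it ran from 6.66 through 7.47 to 7.75 basal and from 8.12 through 8.28 to 8.67 clamped. Neither pair of groups overlapped. The difference of Cyp3a13 was 1.07 ± 0.16 in control (limma adjusted p = 2.46e-05) and 1.05 ± 0.14 in palm oil mice (adjusted p = 4.40e-06). The 7 basal arrays numbered 44 or higher lay lowest for Cyp3a13, and without them the differences were 0.67 (adjusted p = 0.00260) and 0.80 (adjusted p = 8.95e-06). The other 6 Cyp3a genes did not pass.

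Cyp3a25, of the same subfamily, did not pass, and passed once certain basal arrays were left out. It ran from 5.89 through 6.61 to 8.56 in control basal and from 5.51 through 6.92 to 7.37 in control clamped mice. Palm oil mice ran from 6.03 through 7.70 to 8.63 basal and from 6.00 through 7.02 to 8.07 clamped. The groups overlap, and the differences of -0.50 and -0.64 did not pass (limma adjusted p = 0.571 and 0.389). The basal values of Cyp3a25 form separate sets: 7.09 to 8.63 on the 9 arrays numbered below 44 and 5.89 to 6.77 on the 7 numbered from 44. Without the 7, Cyp3a25 fell under the clamp by 1.72 in control (adjusted p = 0.00527) and by 1.19 with palm oil (adjusted p = 0.00880). Without the 12 arrays high in acinar markers it fell by 1.32 with palm oil (adjusted p = 0.0398) and differed by -0.47 in control mice (adjusted p = 0.589).

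Across that number the basal arrays did not overlap for 6 of the 85 members. All 6 lay lower from 44 on (7.06%, beside 1.34% of all genes) and 0 lay higher (all genes 0.32%). All 6 have a signal above the median of all genes, and of the members at such levels they are 12%, beside 2.69% of all genes there. They were Cyp3a25, Cyp2c38, Cyp3a13, Cyp4a14, Cyp2d10 and Cyp2e1. The mean gap was -1.85 for Cyp3a25 and -1.66 for Cyp2c38, and smaller for Cyp3a13 (-0.74), Cyp4a14 (-0.52), Cyp2d10 (-0.36) and Cyp2e1 (-0.23). The step is not particular to P450 genes. The array mean of the 8 hepatocyte markers did not overlap either, from 10.28 to 10.46 on basal arrays from 44 and from 10.52 to 10.65 on those below.

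**Figure D3:**
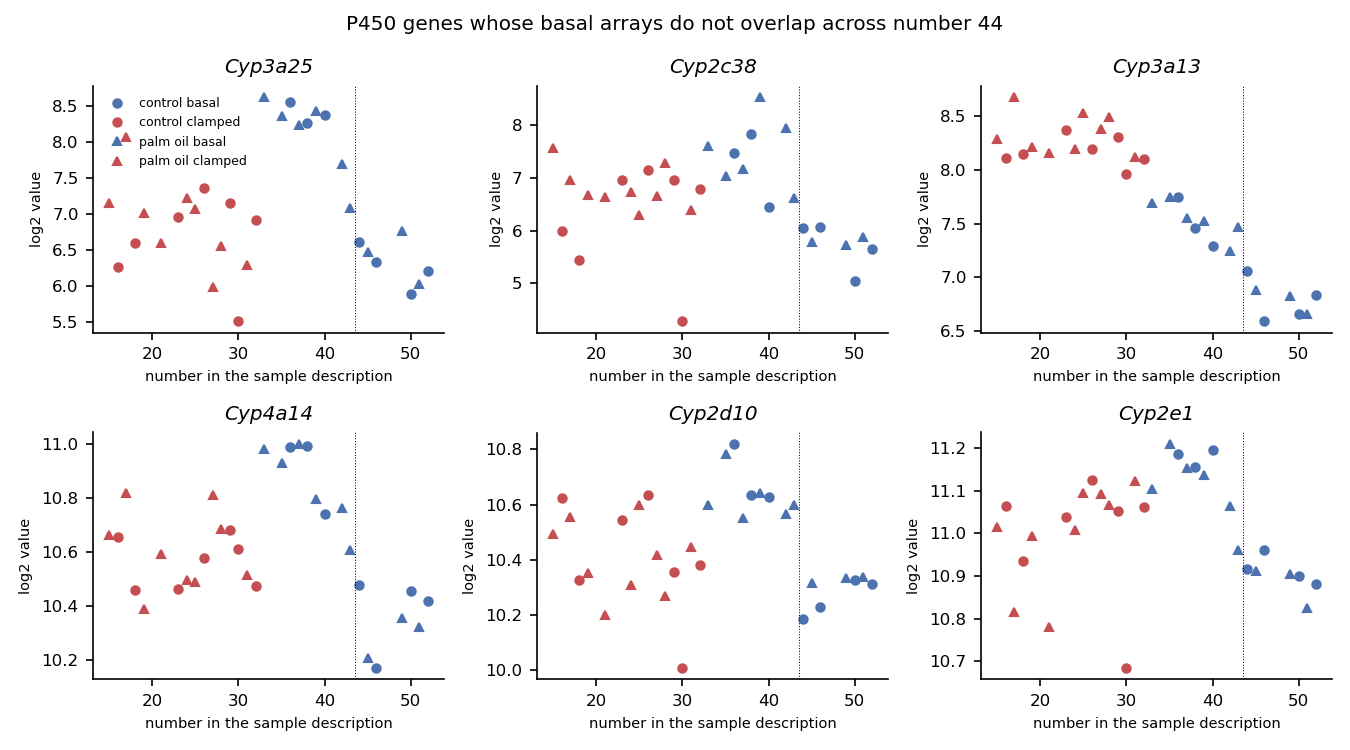
Log2 value (vertical axis) of 6 P450 genes against the number in the sample description (horizontal axis), 1 point per mouse, with clamped mice in red, basal mice in blue, control mice as circles and palm oil mice as triangles. The line marks the step at 44. The 7 basal arrays to its right lie below the 9 basal arrays to its left for each of the 6 genes.

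The sterol enzymes moved in opposite directions. Cyp39a1, an oxysterol hydroxylase of bile acid synthesis, ran from 5.48 through 5.83 to 6.54 in control basal and from 5.76 through 7.20 to 7.78 in control clamped mice. With palm oil it ran from 5.51 through 6.17 to 6.74 basal and from 6.86 through 7.39 to 7.90 clamped. All 9 palm oil clamped mice and 6 of 7 control clamped mice lay above every basal mouse of their diet. The Cyp39a1 difference was 1.01 ± 0.23 (limma adjusted p = 0.00326) and 1.23 ± 0.20 (adjusted p = 6.58e-05). In control mice it did not pass without the basal arrays numbered from 44 (0.81, adjusted p = 0.156).

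Cyp46a1, the cholesterol 24-hydroxylase best known from brain, ran from 2.20 through 2.52 to 3.34 in control basal and from 1.67 through 1.81 to 2.55 in control clamped mice. The palm oil values ran from 2.02 through 2.71 to 3.08 basal and from 1.59 through 2.11 to 2.48 clamped. The groups overlap in both diets. Cyp46a1 fell by 0.64 in control (SE 0.17, limma adjusted p = 0.0128) and by 0.62 in palm oil mice (SE 0.15, adjusted p = 0.00623). Without the basal arrays numbered from 44 neither passed (adjusted p = 0.229 and 0.0618), and without those high in acinar markers the control fall did not (adjusted p = 0.171). Cyp51, the lanosterol demethylase of cholesterol synthesis, differed by 0.52 and -0.20, with neither past the test.

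Of 5 measured steroid hormone synthesis enzymes, Cyp21a1 rose in both diets and Cyp17a1 in palm oil mice. Cyp17a1, the 17-hydroxylase and lyase of androgen synthesis, ran from 4.00 through 5.27 to 6.20 in control basal and from 5.62 through 5.89 to 6.86 in control clamped mice. After palm oil it ran from 3.63 through 4.47 to 5.10 basal and from 5.32 through 5.95 to 8.51 clamped. All 9 palm oil clamped mice lay above every palm oil basal mouse, while 1 of 7 control clamped mice lay above every control basal mouse. The Cyp17a1 difference was 2.06 ± 0.34 in palm oil (limma adjusted p = 5.72e-05) and 0.83 ± 0.38 in control mice (adjusted p = 0.196). The interaction was 1.23 ± 0.51, with an unadjusted p = 0.0212 that did not survive adjustment over all genes (adjusted p = 1.00). A difference between the diets was thus not shown for Cyp17a1.

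Cyp21a1, the steroid 21-hydroxylase of the adrenal, had low signals, from 1.17 through 1.32 to 1.51 in control basal and from 1.57 through 2.35 to 2.56 in control clamped mice. The palm oil values of Cyp21a1 ran from 1.01 through 1.23 to 1.41 basal and from 1.14 through 1.91 to 2.79 clamped. The control groups did not overlap. Its difference was 0.80 ± 0.19 (limma adjusted p = 0.00406) and 0.61 ± 0.16 (adjusted p = 0.0154). Without the basal arrays numbered from 44 it was 0.82 (adjusted p = 0.0802) and 0.65 (adjusted p = 0.0590). Without the arrays high in acinar markers the adjusted p was 0.176 and 0.172. It was the only one of the 35 members with a signal at or below the median of all genes to pass.

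Cyp2u1, which hydroxylates long-chain fatty acids, fell, while none of the 3 Cyp4a and 9 Cyp4f genes, fatty acid hydroxylases too, passed. It ran from 5.66 through 5.96 to 6.12 in control basal and from 2.26 through 4.89 to 5.42 in control clamped mice. Palm oil mice ran from 5.20 through 5.52 to 6.44 basal and from 4.26 through 4.82 to 5.33 clamped. All 7 control clamped mice lay below every control basal mouse, with replicate 7 far below the others at 2.26. Cyp2u1 fell by 1.45 in control mice (SE 0.28, limma adjusted p = 4.71e-04) and by 1.09 without that replicate. In palm oil mice it fell by 0.80 (SE 0.24, adjusted p = 0.0373), a call lost in 10 of 18 fits that left out 1 mouse and without the basal arrays numbered from 44 (0.71, adjusted p = 0.183). That palm oil call was also lost without the acinar-high arrays and with the acinar marker level as a term in the fit.

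Cyp4a14, a PPARA-driven fatty acid hydroxylase, did not pass the test. It ran from 10.17 through 10.48 to 10.99 in control basal and from 10.46 through 10.58 to 10.68 in control clamped mice. With palm oil it ran from 10.21 through 10.76 to 11.00 basal and from 10.39 through 10.59 to 10.82 clamped. In both diets the clamped values of Cyp4a14 lay inside the basal range. The difference was -0.05 (95% interval -0.30 to 0.21) and -0.06 (-0.28 to 0.17). These values pool basal arrays that differ: from 10.61 to 11.00 on those numbered below 44 and from 10.17 to 10.48 on those from 44. Without the latter the difference of Cyp4a14 was -0.35 in control (limma adjusted p = 0.0708) and -0.24 in palm oil mice (adjusted p = 0.0965). With them kept and their set as a term, Cyp4a14 fell by 0.35 in control mice (adjusted p = 0.0174), past the threshold, and differed by -0.24 in palm oil mice (adjusted p = 0.0618). Its signal lies above that of nearly all genes, where changes can be compressed. Cyp4a31 differed by -0.27 and 0.08, with neither past the test. A probe set naming both Cyp4a10 and Cyp4a31 was no member and differed by -0.09 in control mice.

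Other PPARA targets fell in the same livers. Of 19 measured non-P450 targets 13 fell and 1 (Pdk4) rose in control mice, and 11 fell and 1 rose in palm oil mice, with medians of -0.58 and -0.48. Acot4, an acyl-CoA thioesterase, fell by 1.64 (SE 0.22, limma adjusted p = 3.53e-06) and by 1.76 (SE 0.19, adjusted p = 6.86e-08). Its relative Acot3 fell by 1.57 and 1.98, and the peroxisomal thiolase Acaa1b by 1.03 and 1.11. Ppara itself, the receptor, fell by 0.44 (SE 0.11, adjusted p = 0.00681) and by 0.54 (SE 0.10, adjusted p = 1.70e-04). No test of the difference between these genes and the Cyp4a genes was run.

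The remaining called members moved by less. Cyp2d13, which RefSeq lists as a transcribed pseudogene, ran from 8.37 through 8.77 to 9.13 in control basal and from 7.17 through 8.23 to 8.59 in control clamped mice. The palm oil values of Cyp2d13 ran from 8.47 through 9.07 to 9.37 basal and from 7.64 through 8.37 to 8.80 clamped. It fell by 0.66 (SE 0.18, limma adjusted p = 0.0174) and by 0.70 (SE 0.16, adjusted p = 0.00348). The control call was lost without clamped replicate 7 (adjusted p = 0.0627) and without the acinar-high arrays (adjusted p = 0.151). The other 8 Cyp2d genes did not pass, and probes can be shared within this subfamily too.

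Cyp26b1, which clears retinoic acid, ran from 3.12 through 3.35 to 3.91 in palm oil basal and from 2.41 through 2.81 to 3.27 in palm oil clamped mice. In control mice Cyp26b1 ran from 2.75 through 3.05 to 3.46 basal and from 2.35 through 3.06 to 3.83 clamped. It fell by 0.69 in palm oil mice (SE 0.16, limma adjusted p = 0.00498) and differed by -0.00 in control mice (adjusted p = 0.994). The interaction of -0.68 ± 0.25 did not pass (adjusted p = 1.00). Without the basal arrays numbered from 44 the fall of Cyp26b1 was 0.52 (adjusted p = 0.103), and without those high in acinar markers 0.30 (adjusted p = 0.584).

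Cyp2c23, an arachidonic acid epoxygenase, ran from 8.51 through 8.57 to 8.89 in palm oil basal and from 7.79 through 8.30 to 8.55 in palm oil clamped mice. In control mice it ran from 8.24 through 8.61 to 8.83 basal and from 7.18 through 8.26 to 8.51 clamped. Cyp2c23 fell by 0.43 in palm oil mice (SE 0.13, limma adjusted p = 0.0325). Its difference of -0.44 ± 0.14 in control mice missed the threshold (adjusted p = 0.0516). Leaving out 1 mouse ended the palm oil call in 6 of 18 fits and made a control call in 4 of 14. Without the basal arrays numbered from 44 the palm oil value was -0.47 (adjusted p = 0.0674). The palm oil call of Cyp2c23 was also lost without the acinar-high arrays and with the acinar marker level as a term in the fit.

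**Figure D4:**
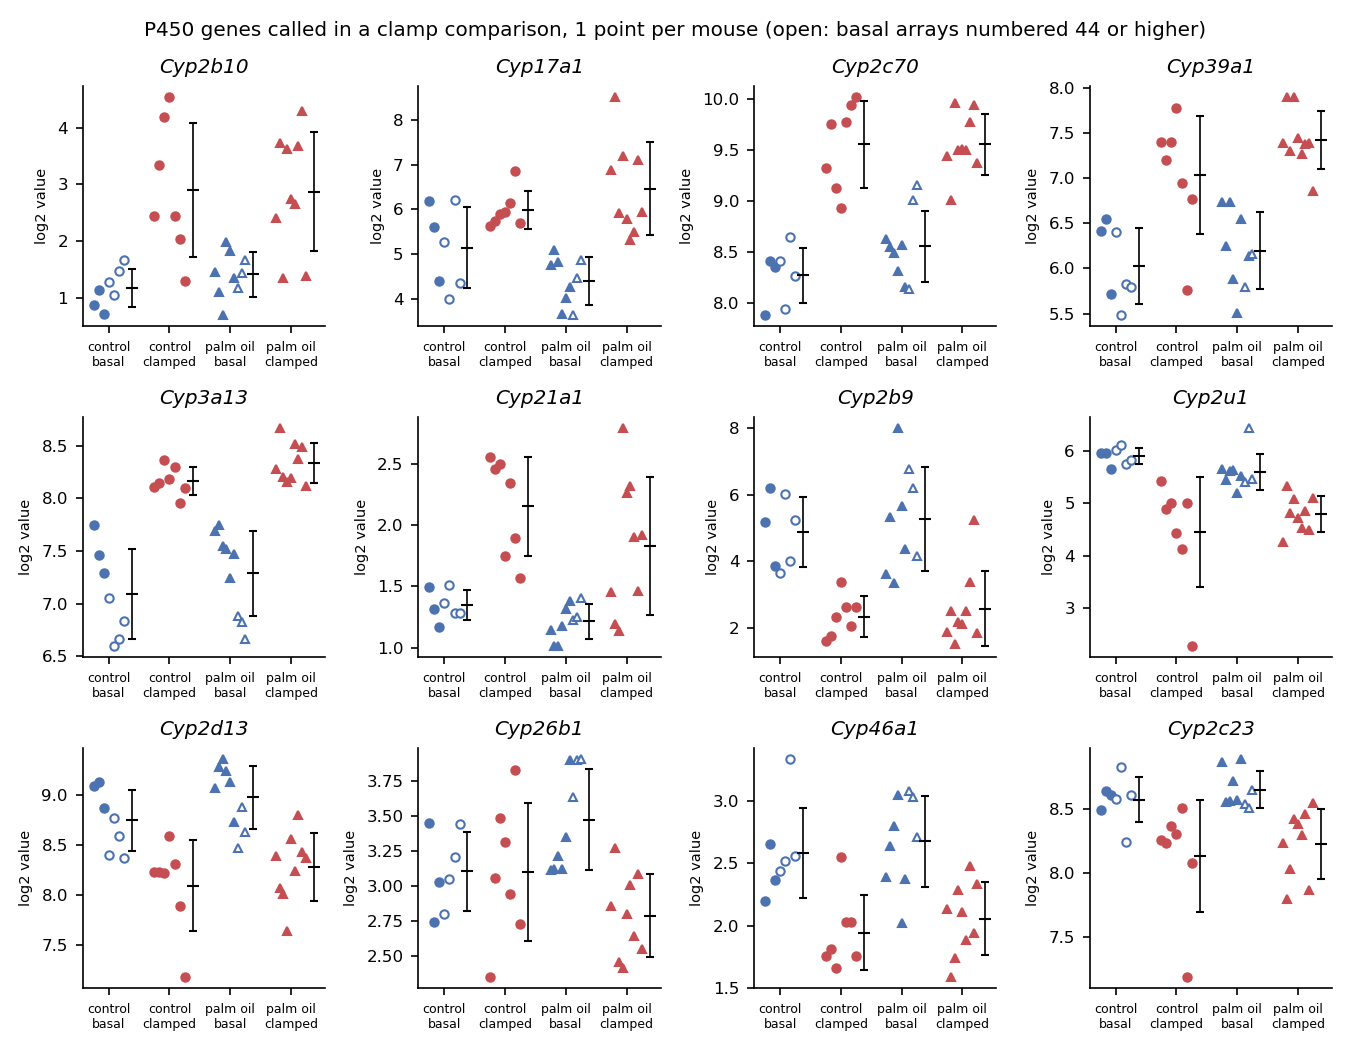
Log2 value (vertical axis) of the 12 P450 genes past the test in a clamp comparison, 1 point per mouse in the 4 groups (horizontal axis), with the group mean and SD as a bar and the basal arrays numbered 44 or higher as open points. Cyp2b9 falls in both diets with 1 palm oil clamped mouse at 5.24, and the open points of Cyp3a13 lie at the foot of both basal groups.

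The 2 clamp comparisons share no mice, but they come from 1 fit with a common spread for each gene. Both also carry the same differences in procedure and in array number between clamped and basal mice. All 9 members called in control mice were called in the same direction in palm oil mice, and these made up 75% of the palm oil calls. Over all genes 1092 were called in both, 56.3% of the control and 65.1% of the palm oil calls, with 2.66% of genes higher in both and 2.26% lower in both. Across the 85 members the differences correlated with a Pearson r of 0.84 (0.80 across all genes), and 59 of 85 had the same sign. Genes are not independent replicates, so no p is given. Group separation was rarer: 3 members lay wholly above in control mice (3.53%, all genes 1.39%) and 2 below (2.35%, all genes 1.16%). In palm oil mice 3 lay wholly above (3.53%, all genes 0.866%) and 0 below (all genes 0.586%). None of these shares is matched for signal level.

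**Figure D5:**
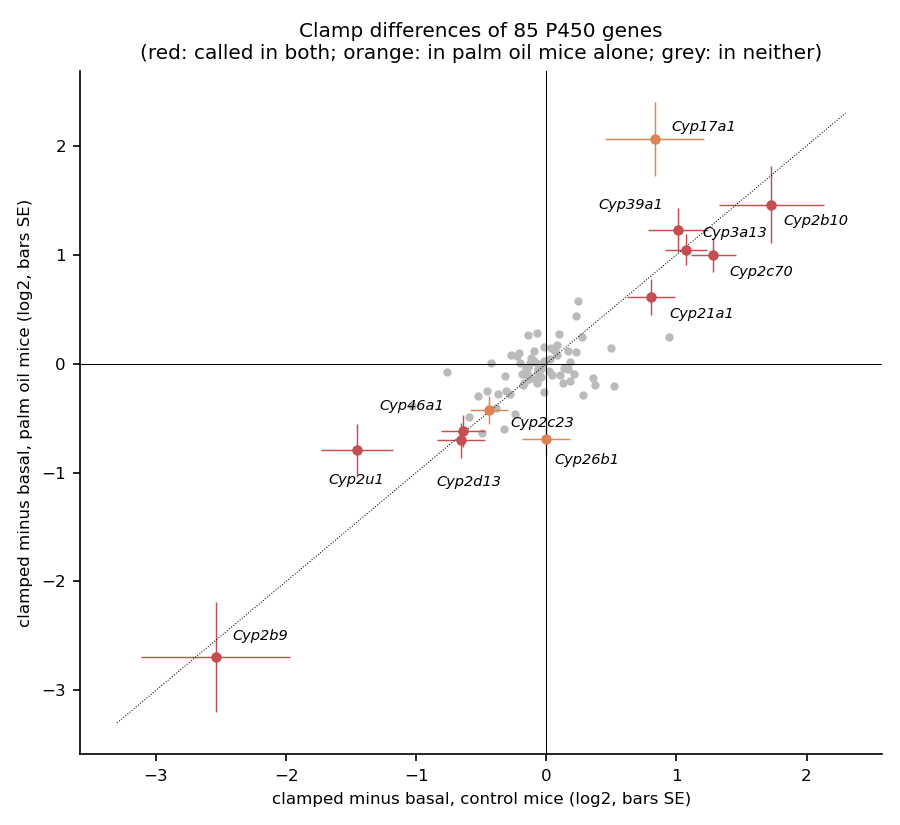
Clamped minus basal difference (log2) of the 85 P450 genes in control mice (horizontal axis) against palm oil mice (vertical axis), with SE bars for the called genes and a dotted line of equality. The 9 genes called in both lie to the lower left and upper right, and Cyp17a1 lies above the line at 0.83 and 2.06.

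None of the 6 members with the brightest signals passed the clamp test over all arrays. They were Cyp2e1 (ethanol oxidation), Cyp4a14, Cyp2d26, Cyp2d10, Cyp2d9 and Cyp2f2. Cyp2e1 ran from 10.88 through 10.96 to 11.20 in control basal and from 10.68 through 11.05 to 11.13 in control clamped mice. The palm oil values ran from 10.82 through 11.06 to 11.21 basal and from 10.78 through 11.02 to 11.12 clamped. The Cyp2e1 difference was -0.03 in both diets, with 95% intervals of -0.21 to 0.14 and -0.19 to 0.13.

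Cyp2d26 medians were 10.54 and 10.49 in control basal and clamped mice and 10.58 and 10.46 in palm oil mice, over a whole range of 10.18 to 10.81. Cyp2d10 medians were 10.33, 10.38, 10.57 and 10.42 in the same order (10.01 to 10.82). Cyp2d9 medians were 10.32, 10.28, 10.29 and 10.31 (9.50 to 10.67). Cyp2f2, marked in periportal hepatocytes, had medians of 10.22, 10.19, 10.19 and 10.23 (9.67 to 10.41). In each of these genes the groups overlap. The largest of their clamp differences was -0.14 for Cyp2d26 in palm oil mice (95% interval -0.28 to 0.01). With quantile normalization repeated, Cyp2d26 fell past the threshold, by 0.29 in control (limma adjusted p = 0.00867) and by 0.24 in palm oil mice (adjusted p = 0.0150). The basal arrays of Cyp2e1 and Cyp2d10 do not overlap across number 44. Without those from 44 on, Cyp2e1 differed by -0.19 and -0.11, and Cyp2d10 by -0.28 and -0.22, none past the test.

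The members were also counted by role. Over all genes 8.75% passed the clamp test in control and 7.57% in palm oil mice. A small list or subfamily can therefore hold 0 calls without differing from other genes. None of 6 pericentral P450 genes passed, among them Cyp1a2, Cyp2c29 and Cyp3a11, with medians of -0.13 and -0.12 in the 2 diets. Pericentral markers that are no P450 (9 of 10 measured) gave 0 calls in either diet. Of 14 CAR and PXR target P450 genes Cyp2b10 and Cyp3a13 rose and Cyp2b9 fell, with medians of -0.14 and -0.12. None of the 3 aryl hydrocarbon receptor targets (Cyp1a1, Cyp1a2, Cyp1b1) passed. Of 7 measured P450 genes known as female-biased Cyp2b9 alone passed, and of 2 known as male-biased Cyp2u1 fell and Cyp2d9 did not pass. The vitamin D enzymes Cyp2r1, Cyp24a1 and Cyp27b1 did not pass, nor did any of 4 Cyp2a, 7 Cyp2j or 9 Cyp4f genes.

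Many P450 genes lie side by side in the genome. RefSeq order placed 84 members, of which 64 lay in 11 runs of neighbouring P450 genes (at most 3 other genes between) and 20 lay alone. Called in a clamp comparison were 3 of the 64 members in runs, in 2 of the 11 runs, and 8 of the 20 that lay alone. Over all 22180 genes 1940 (8.75%) were called in control and 1678 (7.57%) in palm oil mice, 1092 of them in both in the same direction. The share called in either comparison is higher than each of these, so they are no matched baseline for the counts above. The called Cyp2d13 has no place, because only protein-coding genes were ordered. Members with dim signals lie both in runs and alone, and the difference between runs and single genes was not tested. Runs hold the large Cyp2c, Cyp2d, Cyp2j, Cyp3a, Cyp4a and Cyp4f subfamilies.

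Heme synthesis enzymes were among the genes that fell. Of 13 measured genes for electron supply and heme, 5 fell and Hmox1 rose in each diet, with Alas1, Alad, Cpox and Cyb5r3 falling in both. Alas1, the first enzyme of heme synthesis, ran from 9.64 to 10.13 in control basal and from 8.20 to 9.51 in control clamped mice, without overlap. Alas1 fell by 0.76 (SE 0.16, limma adjusted p = 0.00106) and by 0.61 in palm oil mice (SE 0.14, adjusted p = 0.00299). Alad, the next enzyme, fell by 0.63 and 0.50. Hmox1, heme oxygenase, rose by 2.27 ± 0.22 (adjusted p = 1.54e-08) and 2.00 ± 0.20 (adjusted p = 7.76e-09).

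Regulators of P450 genes moved both ways. Of 23 measured, 5 rose and 8 fell in control mice, and 3 rose and 7 fell in palm oil mice. Nr1i3, which encodes CAR, ran from 9.82 through 9.98 to 10.29 in control basal and from 7.28 through 8.92 to 9.38 in control clamped mice. It fell by 1.24 (SE 0.22, limma adjusted p = 2.12e-04) and by 0.91 in palm oil mice (SE 0.20, adjusted p = 0.00186), while Cyp2b10, its best known target, rose. Foxa1, a forkhead factor, fell by 0.62 and 0.77, both past the test. Dbp, Tef and Hlf, clock-controlled activators, and Cebpa also fell in both diets, and Ahr, Cebpb and Hnf4a rose in both.

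Of the other CAR and PXR targets (14 measured) the stress gene Gadd45b rose by 2.24 and 1.87, and the export pump Abcc3 fell by 0.67 and 0.48, each past the test. A further pump, Abcc2, fell by 0.46 in control mice and differed by -0.32 in palm oil mice (limma adjusted p = 0.0645). Of 7 other aryl hydrocarbon receptor targets Tiparp rose by 1.86 and 1.76.

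Markers of inflammation and other cells moved with these results. Of 8 hepatocyte markers 3 rose in control and 2 in palm oil mice. Acute phase genes, which include the hepatocyte marker Hpx, rose for 22 of 23 measured in each diet, with medians of 0.98 and 1.00, and their mean ran from 8.23 to 9.11 on basal and from 9.63 to 10.43 on clamped arrays. Neutrophil markers rose for 6 of 10, with array means of 1.82 to 2.49 basal and 2.73 to 3.61 clamped. Kupffer cell markers rose for 4 of 10 in each diet. Adipocyte markers (4 of 5 measured) did not pass and had no signal above the median of all genes. The part of these in the P450 differences was not tested. In bulk liver, fewer cells of a type and less RNA per cell cannot be told apart.

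One control clamped mouse, replicate 6, stood low in P450 genes. Of the 50 members with a signal above the median of all genes, 28 (56%) had their lowest control clamped value in replicate 6, beside 20.6% of all genes at such levels. Its mean over the 50 was 5.95, against 6.29 to 7.00 on the other 31 arrays, while its mean over all such genes was 4.73, within the range of 4.61 to 4.79 on the others. The gap was large for Cyp4f15 (3.61, group median 7.50), Cyp2j9 (1.96, median 4.38), Cyp1a2 (8.54, median 9.77) and Cyp2f2 (9.67, median 10.19). Its periportal marker mean of 6.95 and pericentral marker mean of 6.37 were the lowest of the control clamped mice, and its hepatocyte marker mean was 10.66, in a group range of 10.65 to 10.78. Without replicate 6 the same 9 members passed in control mice.

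The palm oil comparisons asked whether a single fat load altered the liver. In basal mice 0 of 85 members passed limma's test, as did 0% of all genes. At an unadjusted p under 0.05 there were 5 members (5.88%, all genes 5.11%), and the exact rank sum test called 0. The smallest p was that of Cyp2c68, higher by 0.51 ± 0.15 in palm oil mice (unadjusted p = 0.00158, limma adjusted p = 0.960). Cyp4f39 differed by -0.32, Cyp2r1, the vitamin D 25-hydroxylase, by 0.46 and Cyp26b1 by 0.37, none past adjustment. The 5th was Cyp17a1, with a difference of -0.75 ± 0.36. The 85 differences ran from -0.75 to 0.56 with a median of 0.04. The basal arrays numbered from 44 are 4 of 7 control and 3 of 9 palm oil mice. Without them the difference was 0.27 for Cyp2c68 and 0.32 for Cyp2r1. On the basal arrays below 44 the control and palm oil means were 3.08 and 3.31 for Cyp26b1. They were 1.33 and 0.995 for Cyp4f39 and 5.39 and 4.44 for Cyp17a1.

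Under the clamp 0 of 85 members passed limma's test, as did 0% of all genes. The rank sum test, with the same limit, called 0. At an unadjusted p under 0.05 there was 1 member (1.18%, all genes 3.52%), Cyp4b1, with 0.29 ± 0.14. Cyp21a1 differed by -0.33, Cyp2j6 by 0.28 and Cyp4f15 by 0.62. The Cyp4f15 value rests on control clamped replicate 6 and was 0.08 without it. The 2 palm oil comparisons and the clamp comparisons share groups, so their values are set side by side only.

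The interaction asked whether the palm oil difference changed under the clamp. It called 0 of 85 members and 0% of all genes, and 3 members had an unadjusted p under 0.05 (3.53%, all genes 3.49%): Cyp26b1 (-0.68), Cyp2c68 (-0.56 ± 0.21) and Cyp17a1 (1.23). Cyp2r1, at -0.56, missed it. The widest 95% interval among these ran from 0.20 to 2.26 for Cyp17a1, so differences between the diets of that size could go uncalled at this number of mice.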

How the data were processed

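Liver RNA of 32 mice was measured, 1 Affymetrix Mouse Gene 2.1 ST array each. The authors deposited log2 values for 41345 probe sets. Per the submitters' processing notes they used RMA and Expression Console (Affymetrix, version 1.3.0.187). RMA background-corrects, quantile-normalizes and summarises probes. Differences of dim and of very bright probe sets can be compressed in array values. The number of arrays limits the precision. Of the probe sets 23521 name 1 gene, 1814 several and 16010 none here. The highest-mean probe set of a symbol was kept. All 85 members matched RefSeq by Entrez number. For 4 members a second probe set existed, and for Cyp2c29 (mean 9.86 and 1.24) and Cyp2c55 (-0.60 and 0.39 in the control clamp comparison) the 2 disagreed.

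The values were fitted with limma 3.58.1 in R 4.3.3 (lmFit, eBayes) with 1 mean for each of the 4 groups and 28 residual degrees of freedom, and p-values were adjusted over all 22180 genes at 0.05. The fit was tested on simulated data. Values named for a group are its lowest, median and highest array, and a difference is clamped minus basal or palm oil minus control.

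Named were Cyp2b9, Cyp3a25 and Cyp4a14, up to 8 members with the largest rise and fall past the threshold, the 6 with the highest means, and, where fewer than 4 passed, the 4 with the smallest p. Of other lists up to 3 genes with the smallest p in a clamp comparison were named with values. Cyp51, Cyp1a1, Cyp1b1 and others appear as members of lists by role. Members, lists and array sets were chosen with earlier results of these data known. The sex-biased, receptor and zonation lists are from general knowledge. Alternatives were other normalizations, priors, weights, blocks, thresholds, tests and sets of arrays. Sequences are RefSeq's, build GRCm38.p6, and motifs were searched on both strands. The build behind the array annotation is not given in the sources used here.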

Additional observations from a re-analysis of the deposited data

Results flagged for a closer look

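In the 25 named members every group was searched for a highest or lowest mouse far from the nearest other (Dixon's 95% limit). Of 100 groups 10 held one, where chance alone flags about 1 in 20, or 5. In control clamped replicate 6, Cyp17a1 was highest at 6.86 (next 6.13), Cyp2c23 lowest at 7.18 (next 8.08), Cyp2e1 lowest at 10.68 (next 10.94) and Cyp4f15 lowest at 3.61 (next 6.55). In control clamped replicate 7, Cyp2u1 was lowest at 2.26 (next 4.12), and in control clamped replicate 4, Cyp46a1 was highest at 2.55 (next 2.03). Cyp46a1 was also highest in control basal replicate 6 at 3.34 (next 2.66). In palm oil basal replicate 8, Cyp2u1 was highest at 6.44 (next 5.65), and in palm oil clamped replicate 8, Cyp2b9 was highest at 5.24 (next 3.38). Cyp4b1 was highest in palm oil clamped replicate 2 at 5.11 (next 4.73). Replicate 6 of the control clamped mice is the one in which many P450 genes were low.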

How the results depend on the processing

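In control mice the 9 P450 calls of the clamp comparison became 14 with repeated quantile normalization, 14 at a threshold of 0.1, 4 with a minimum of 1.3-fold and 4 without the 12 acinar-high arrays. In palm oil mice the 12 calls became 5 with a minimum of 1.3-fold. Leaving out 1 mouse at a time gave 8 to 12 calls in control and 10 to 12 in palm oil mice. The last set of arrays leaves 3 control basal and 4 palm oil basal mice, so fewer samples enter. The palm oil comparisons and the interaction gave 0 calls under every alternative run, the rank sum test with the limit given above. In the clamp comparisons the exact rank sum test did not call Cyp39a1, Cyp2d13 and Cyp46a1 in control mice, nor Cyp2b10 and Cyp21a1 in palm oil mice. With the replicate number as a replicate block the counts were 12 and 12. Correlations of same-numbered deviations were mixed and do not settle whether the numbers pair the mice. For the clamp comparisons they ran from -0.36 to 0.04 in control and -0.19 to 0.21 in palm oil mice (0 of 7 and 4 of 9 over 0.1). Between the diets they ran from -0.26 to 0.36 in basal and -0.29 to 0.28 in clamped mice (3 of 7 and 1 of 7 over 0.1). The control clamp difference of Cyp26b1 (-0.00) turned positive with arrays centred on 1 median (0.031), without the basal arrays numbered from 44 (0.025), with these as a term, an alternative chosen after seeing the data (0.17), with the acinar level as a term (0.12), and without the acinar-high arrays (0.077), and ran from -0.13 to 0.12 leaving out 1 mouse. That of Cyp4a14 (-0.05) was 0.11 without the acinar-high arrays and -0.35 without the basal arrays numbered from 44, passed with these as a term (-0.35), and ran from -0.12 to 0.019 leaving out 1 mouse. Among the other bright members signs turned as follows. In control mice Cyp2e1 was 0.0014 and Cyp2d9 0.021 with arrays centred on 1 median, Cyp2d9 0.0030 with array weights, and Cyp2d10 0.040 and Cyp2d9 0.0013 without the acinar-high arrays. In palm oil mice arrays centred on 1 median gave 0.00011 for Cyp2e1 and 0.030 for Cyp2f2, and array weights -0.012 for Cyp2d9 and 0.010 for Cyp2f2. There Cyp2d9 was also -0.061 with repeated quantile normalization, -0.11 without the basal arrays numbered from 44, -0.13 with these as a term and -0.087 without the acinar-high arrays, and Cyp2f2 0.0044 without the arrays from 44 and 0.016 with the acinar level as a term. Leaving out 1 mouse gave, in control mice, -0.058 to 0.018 for Cyp2e1, -0.082 to 0.029 for Cyp2d10, -0.11 to 0.10 for Cyp2d9 and -0.0996 to 0.017 for Cyp2f2, and in palm oil mice -0.036 to 0.090 for Cyp2d9 and -0.026 to 0.024 for Cyp2f2. Cyp2d26 passed in both diets with repeated quantile normalization alone. The cause was not tested. Of the other settings of named members 1476 kept direction and side of the threshold, 60 lost and 16 gained a call. Cyp2c70 and Cyp3a13 in both diets, Cyp2u1 in control and Cyp39a1 and Cyp17a1 in palm oil mice passed under every alternative run. Signals near the background limit what can be read for 35 members.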
